A study of Mus musculus with 24 samples.

Results

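The comparison described here asks whether diet changed the way that mammary fat lying far from a breast tumor differed from the fat of tumor-free mice. It was computed for every gene as the interaction of diet and tumor bearing: contralateral minus no-tumor fat on HFD, less contralateral minus no-tumor fat on Chow, on the log2 scale. It used 16 of the 24 libraries of the series, 4 in each of 4 groups chosen by their labels and not by any measured value. All were total RNA of flash frozen subcutaneous adipose tissue at the 4th mammary gland, from the C57BL/6 strain, treated with DNase and depleted of rRNA. The Chow no-tumor group came from mice on Chow without a tumor, and the Chow contralateral group from mice on Chow, from the side opposite a breast tumor. The HFD no-tumor and HFD contralateral groups were the same positions in mice on the diet labelled HFD, and the series speaks of lean and obese animals. The labels name no genotype, sex or age, no tumor line, no duration or composition of the diets, and they do not say that replicates were separate animals. The p-values therefore compare effects with the spread among the 4 libraries of a group, and part or all of that spread may be technical. Sample numbers in the column headers of the count matrix run in consecutive blocks by group. The headers do not say what the numbers stand for, and any effect of that order cannot be told apart from the groups.

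As background, mammary subcutaneous fat holds lipid-filled adipocytes together with macrophages, mast cells, fibroblasts, blood vessels, nerve fibers with their myelinating Schwann cells, and the ducts of the gland. Feeding a high-fat diet enlarges adipocytes and is known for bringing myeloid cells into the depot, and a growing tumor can act on distant tissue through circulating factors and cells. In bulk RNA fewer cells of a type and less RNA per cell cannot be told apart, which holds for every group of genes below.

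Libraries held between 11.7 and 17.3 M counts (M stands for 1000000), and the totals were lowest in the Chow contralateral group (11.7 to 13.8 M). Mitochondrial ribosomal RNA took 32.4% ± 2.38 of counts in Chow no-tumor, 24.9% ± 1.4 in Chow contralateral, 21.6% ± 0.713 in HFD no-tumor and 23.9% ± 0.959 in HFD contralateral fat. Skeletal muscle genes separated libraries within the Chow groups. Over the 16 of 17 muscle genes tested, the mean level was 0.19, 2.71, 5.29 and -0.00 log2 CPM (counts per M, scaled for library composition) in Chow no-tumor replicates 1 to 4 and 6.10, 6.29, 1.69 and 6.01 in Chow contralateral replicates 1 to 4. On HFD it stayed between 0.05 and 0.79, with the muscle creatine kinase gene Ckm at or near 0. Muscle RNA was thus high in 3 of 4 Chow contralateral libraries and in Chow no-tumor replicate 3. Chow contralateral replicate 4 had the highest B cell mean, 4.40 against 0.59 to 2.30 in the other 15 libraries, and Chow no-tumor replicate 2 was low in macrophage and interferon genes. The adipocyte hormone gene Adipoq was abundant in all 16 libraries.

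The interaction passed edgeR's quasi-likelihood test (Benjamini-Hochberg adjusted p under 0.05) for 3314 of 16676 genes, 19.9%. The contralateral minus no-tumor difference was higher on HFD for 1657 genes (9.94% of those tested) and lower on HFD for 1657 (9.94%). Large values lay mostly on the lower side: 662 of the lower calls exceeded 2-fold against 55 of the higher ones. The median interaction over all genes was 0.01. At an unadjusted p under 0.05 there were 5770 genes. With all 24 libraries in 1 fit 1556 genes were called, and with the skeletal muscle mean as a covariate 1764.

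For most of these genes the 2 diets gave effects of opposite sign. In the fat of tumor-bearing mice on Chow, 1063 genes rose (6.37%) and 1036 fell (6.21%) against no-tumor fat, and on HFD 349 rose (2.09%) and 536 fell (3.21%). There were 138 genes that rose on Chow and fell on HFD, all 138 with a lower interaction, and 64 that fell on Chow and rose on HFD, all 64 with a higher one. Only 11 genes rose on both diets and 8 fell on both. The 2 effects had opposite signs in 96.6% of the genes with a lower interaction, with medians of 0.41 on Chow and -0.38 on HFD. They had opposite signs in 97.2% of those with a higher interaction, with medians of -0.24 and 0.18. Calling a difference favours opposite signs, and 55.9% of the genes not called had them as well. A further 648 genes with a higher and 565 with a lower interaction passed on neither diet alone.

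**Figure D1:**
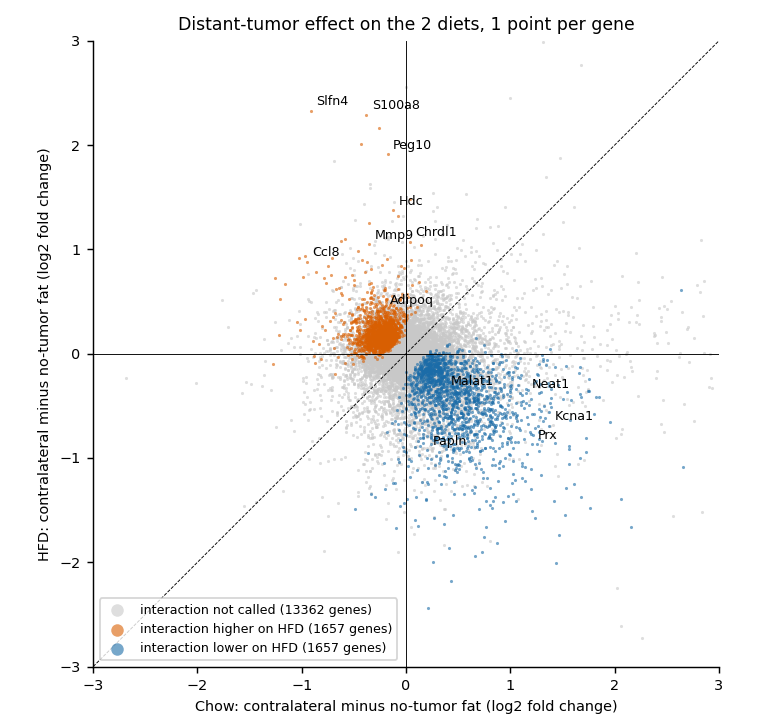
Log2 fold change of contralateral against no-tumor fat on Chow (x axis) and on HFD (y axis), 1 point per gene, colored by the interaction call; the dashed line marks equal effects and 20 of 16676 genes lie outside the axes. Lower calls spread to the lower right (Prx and Kcna1 among the genes named), and higher calls lie to the upper left.

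Gene lists showed the same division. Genes of nerve sheath, nuclear RNA, smooth muscle, endothelium and mammary epithelium were called on the lower side. Genes of ribosomes, respiration, the endoplasmic reticulum, adipocytes and myeloid cells were called on the higher side. The lists overlap in part, and their genes were not drawn independently of earlier results. Of all tested genes 9.94% were called each way, the share to set beside each list count below. With all 24 libraries in 1 fit 625 of 17201 tested genes were higher and 931 lower. With the skeletal muscle mean as a covariate 774 of 16676 were higher and 990 lower. In that fit of all 24 libraries, 6 myelin, 9 nuclear RNA, 7 smooth muscle, 3 endothelial and 1 mammary epithelial genes were lower. On the higher side were 5 ribosomal protein, 6 oxidative phosphorylation, 5 ER stress and 2 mature adipocyte genes. Of the myeloid lists, 3 macrophage, 1 neutrophil and 0 cytokine and chemokine genes were higher there.

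**Figure D2:**
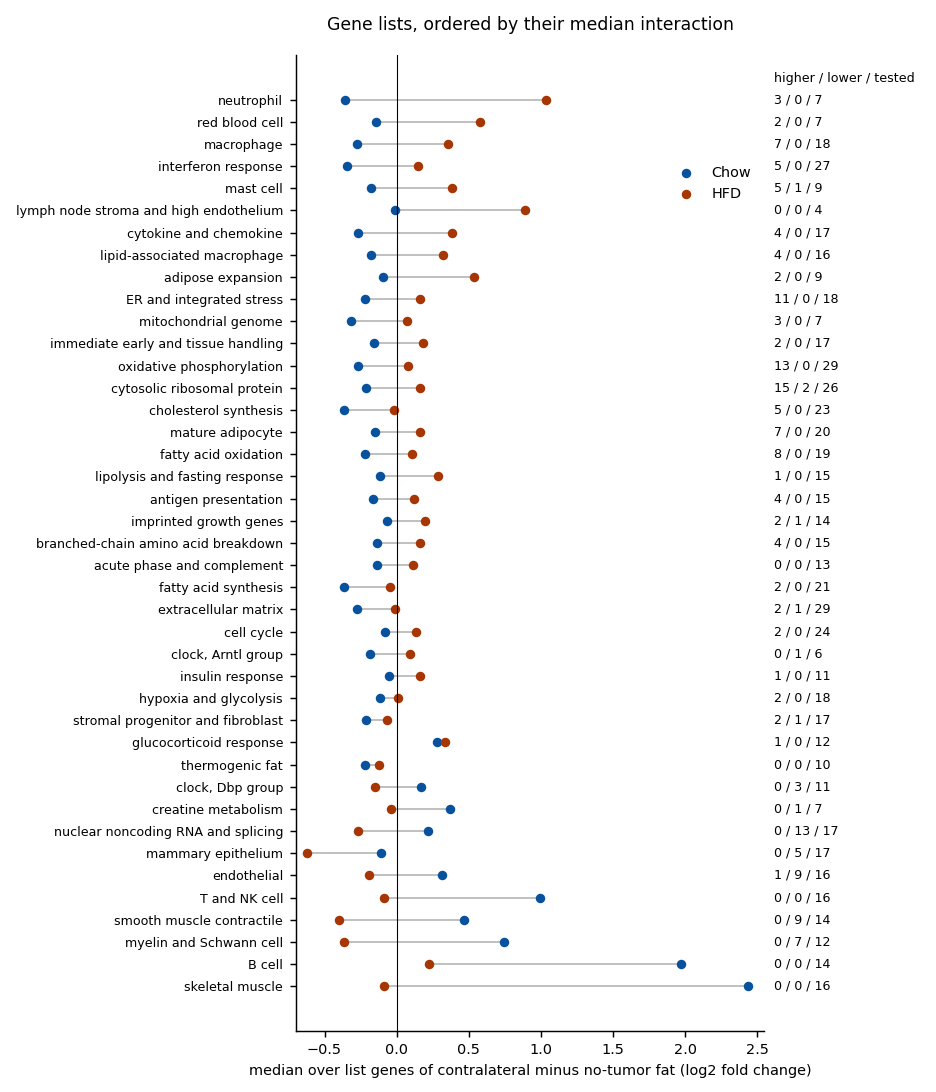
Median log2 fold change of contralateral against no-tumor fat on Chow (blue) and on HFD (brown) over the tested genes of 41 lists, ordered by median interaction; the numbers at the right count genes with a higher interaction, a lower interaction and all genes tested. Myelin, smooth muscle and nuclear RNA lists lie above 0 on Chow and below 0 on HFD, and the macrophage and ER stress lists lie the other way round.

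Genes of the nerve sheath had a lower interaction. Prx encodes periaxin, which links the Schwann cell to its matrix, and was 6.43, 3.71, 4.1 and 5.52 CPM in Chow no-tumor replicates 1 to 4 and 10.5, 13.5, 10.3 and 11.7 CPM in Chow contralateral fat. Prx on HFD was 7.22, 5.7, 7.06 and 5.57 CPM in no-tumor and 2.91, 4.41, 4.18 and 2.48 CPM in contralateral fat. Neither pair of groups overlapped, and the interaction was -2.08 ± 0.27 (log2, SE; adjusted p = 0.000287). Prx in Chow contralateral replicate 3, where muscle RNA was low, stood at 10.3 CPM. That is 1 library, and what part muscle RNA had in the Prx difference was not tested. Of 12 myelin and Schwann cell genes tested, 7 were lower and 0 higher, with a median interaction of -1.29. Among the other lower genes were Drp2, a partner of periaxin (-1.43 ± 0.18, adjusted p = 0.000262), Sox10, the Schwann cell transcription factor (-1.35 ± 0.26, adjusted p = 0.00387), Ncmap (-1.37 ± 0.40, adjusted p = 0.0225) and Mbp (-0.60 ± 0.09, adjusted p = 0.000641). The myelin gene Pmp22 had 0.03 ± 0.14, adjusted p = 0.899 and the glial gene S100b -0.12 ± 0.33, adjusted p = 0.827, and neither passed. The count was 7 with the skeletal muscle mean as a covariate and 7 to 8 without any 1 library.

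Some genes outside that list, named for their low adjusted p, are known from neurons or glia. No list of such genes was examined, and which cells held their RNA was not tested. Kcna1 (chromosome 6, 126636463 to 126645801, mm10) encodes a voltage-gated potassium channel of myelinated axons. It was 9.09, 9.24, 9.37 and 12.9 CPM in Chow no-tumor fat and 27.9, 28.8, 24.8 and 23.7 CPM in Chow contralateral fat. Kcna1 on HFD was 7.92, 7.98, 8.52 and 7.98 CPM in no-tumor and 5.95, 4.59, 5.63 and 3.84 CPM in contralateral fat, again without overlap. Its interaction was -2.06 ± 0.19 (log2, SE; adjusted p = 9.96e-06). Gpr17, a receptor of the oligodendrocyte lineage, had -1.33 ± 0.15 (log2, SE; adjusted p = 0.000102), and the glutamate receptor gene Grik3 had -1.29 ± 0.16 (log2, SE; adjusted p = 0.000222). The nucleotide exchange factor gene Kalrn had -1.33 ± 0.15 (log2, SE; adjusted p = 0.000135).

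**Figure D3:**
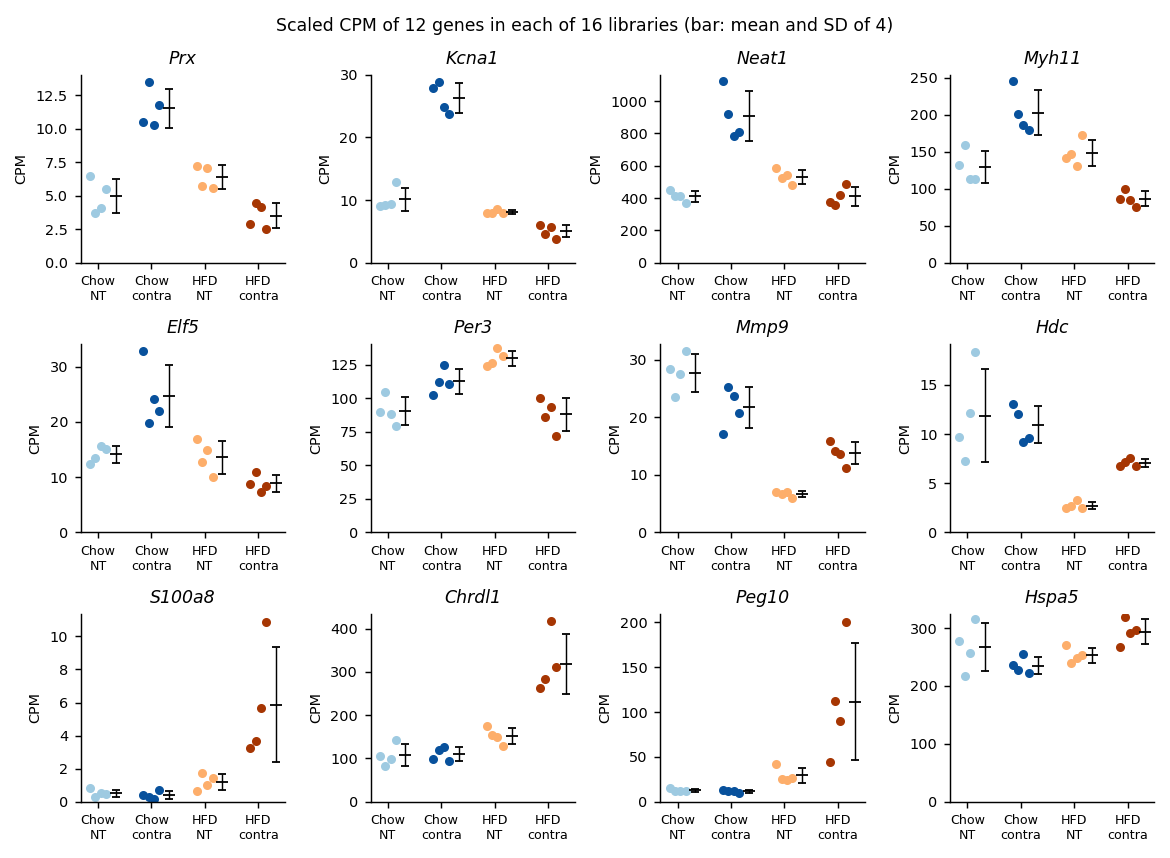
CPM of 12 genes in each library (points), with the mean and SD of 4 libraries (bar), for no-tumor (NT) and contralateral (contra) fat on Chow and HFD; each axis starts at 0. Prx, Kcna1, Neat1, Myh11 and Elf5 are highest in Chow contralateral fat, whereas S100a8, Chrdl1 and Peg10 are highest in HFD contralateral fat.

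Nuclear RNA had the same directions. Neat1 (chromosome 19, 5824708 to 5845478) is the long noncoding RNA that builds paraspeckles. It was 449, 411, 412 and 368 CPM in Chow no-tumor and 1126, 921, 782 and 812 CPM in Chow contralateral fat. It was 585, 525, 541 and 480.3 CPM in HFD no-tumor and 374, 359.7, 419 and 486 CPM in HFD contralateral fat. The Chow groups were far apart and the HFD groups met at 1 library. Neat1 rose on Chow by 1.15 ± 0.11 (log2, SE; adjusted p = 4.73e-05) and its HFD effect of -0.38 ± 0.11 missed the threshold (adjusted p = 0.0581), with an interaction of -1.53 ± 0.16 (log2, SE; adjusted p = 4.95e-05).

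Its neighbor Malat1, the nuclear speckle RNA (chromosome 19, 5795690 to 5802672), was 7704, 8691, 8613 and 8600.2 CPM in Chow no-tumor and 10627, 10749, 10989 and 11295 CPM in Chow contralateral fat. Malat1 on HFD was 7148, 7309, 6796 and 6168 CPM in no-tumor and 5490.2, 5151, 5356 and 5408 CPM in contralateral fat. No pair overlapped, and Malat1 passed in both directions, up by 0.38 ± 0.07 (log2, SE; adjusted p = 0.00493) on Chow and down on HFD (-0.36 ± 0.07). Its interaction was -0.73 ± 0.10 (log2, SE; adjusted p = 0.000404). Of 17 nuclear noncoding RNA and splicing genes tested, 13 were lower and 0 higher, with a median of -0.45. They included Meg3, an imprinted noncoding RNA (-0.93 ± 0.11, adjusted p = 0.000113), Clk4, a kinase of splicing factors (-0.59 ± 0.10, adjusted p = 0.00106), and the splicing factor genes Pnisr (-0.65 ± 0.11, adjusted p = 0.00116) and Srsf5 (-0.45 ± 0.09, adjusted p = 0.00314). With the exon length and GC trend taken off Meg3 had -0.55. With the skeletal muscle mean as a covariate 12 of the 17 were lower. The list mean lay between 7.34 and 7.39 log2 CPM in the 4 Chow contralateral libraries and between 6.75 and 6.86 in the 4 HFD contralateral ones. All no-tumor libraries of both diets lay between, at 6.95 to 7.12.

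The RNA-binding protein genes Rbm4 and Rbm4b, similar neighbors on chromosome 19 whose counts may not be cleanly separate, followed the same pattern. Rbm4 was 13.4, 13.4, 12.5 and 14.1 CPM in Chow no-tumor and 20.6, 20.3, 19.7 and 23.5 CPM in Chow contralateral fat. Rbm4 on HFD was 13.7, 13.6, 10.8 and 11.9 CPM in no-tumor and 7.67, 7.98, 8.12 and 7.56 CPM in contralateral fat. Neither pair overlapped, with an interaction of -1.33 ± 0.12 (log2, SE; adjusted p = 1.41e-05), and Rbm4b had -1.07 ± 0.09 (log2, SE; adjusted p = 9.96e-06).

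The division also ran along gene class and transcript length. Among genes that GENCODE classes as antisense, 24.6% were lower and 0.178% higher (562 genes, median -0.77). Among 327 lincRNA genes 23.5% were lower and 0.612% higher, and 17 of 34 sense intronic genes were lower and 0 higher. Protein-coding genes split more evenly, with 8.83% lower and 11% higher among 14139. Since no source used here gives the counting strand, reads of an antisense gene and of its partner cannot be told apart. In the longest of 10 length bins, with 7860 to 116824 exon bases, 23.5% were lower and 2.46% higher. In the shortest bin, with 57 to 1012 exon bases, 8.33% were lower and 13.2% higher. In the second shortest bin, with 1013 to 1638 exon bases, 5.14% were lower and 14.6% higher. Long noncoding RNA other than Malat1, Neat1 and Gm42418 took 0.717% to 0.948% of counts in Chow contralateral libraries and 0.503% to 0.584% in Chow no-tumor libraries. On HFD it took 0.454% to 0.497% in contralateral and 0.558% to 0.594% in no-tumor libraries. With the trend of exon length and GC taken off, 3005 genes were called, of which 2683 were also called without that step. The part of RNA composition in the gene groups described here was not otherwise tested.

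**Figure D4:**
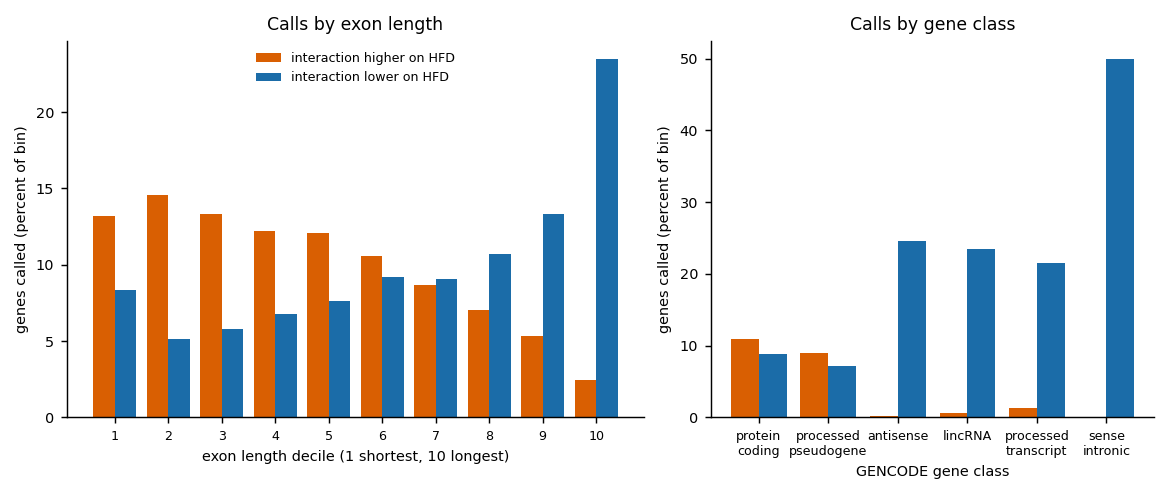
Percent of tested genes with a higher (orange) or lower (blue) interaction, by decile of exon length (left) and by GENCODE gene class (right). Lower calls make up 8.33% of the shortest and 5.14% of the second decile and 23.5% of the longest, and 24.6% of antisense genes.

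Genes of vessel walls and of the ducts were lower as well. Myh11, the smooth muscle myosin heavy chain gene, was 132, 159, 113 and 113 CPM in Chow no-tumor and 246, 201, 186 and 179 CPM in Chow contralateral fat. Myh11 on HFD was 141, 147, 131 and 173 CPM in no-tumor and 86.5, 99, 85 and 74.6 CPM in contralateral fat. Neither pair overlapped, and the interaction was -1.43 ± 0.18 (log2, SE; adjusted p = 0.000312). Of 14 smooth muscle contractile genes, a list chosen after the data were seen, 9 were lower and 0 higher, with a median of -0.98. Among them were Carmn, a noncoding RNA of smooth muscle (-1.09 ± 0.14, adjusted p = 0.000312), Synm, which encodes synemin (-1.26 ± 0.17, adjusted p = 0.000404), Smtn, which encodes smoothelin (-0.82 ± 0.12, adjusted p = 0.000501), and Pln, which encodes phospholamban (-1.38 ± 0.23, adjusted p = 0.00124). Acta2, smooth muscle actin, did not pass (-0.10 ± 0.23, adjusted p = 0.784). The list count was 8 with the skeletal muscle mean as a covariate.

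Of 16 endothelial genes 9 were lower and 1 was higher, against 9.94% of all tested genes each way, with a median of -0.58. Kdr, the main receptor for vascular endothelial growth factor, was 76.3, 111, 83.1 and 97.5 CPM in Chow no-tumor and 134, 131, 126 and 125 CPM in Chow contralateral fat. It was 126, 122, 116 and 113 CPM in HFD no-tumor and 81.1, 75.8, 89.7 and 116 CPM in HFD contralateral fat. The Chow groups did not overlap, and on HFD 1 contralateral library reached the no-tumor range. Its interaction was -0.89 ± 0.17 (log2, SE; adjusted p = 0.00303). Emcn, endomucin of capillaries and veins, had -0.81 ± 0.16, adjusted p = 0.00291, and Flt1, another receptor of that growth factor, had -0.56 ± 0.16, adjusted p = 0.0246. Rgcc was the gene with a higher interaction (0.33 ± 0.10, adjusted p = 0.0225). With the skeletal muscle mean as a covariate, and with all 24 libraries in 1 fit, 3 endothelial genes were lower and 0 higher.

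Of 17 mammary epithelial genes 5 were lower and 0 higher, against 9.94% of all tested genes each way, with a median of -0.53. Elf5, a transcription factor of luminal progenitors, was 12.3, 13.4, 15.6 and 15.1 CPM in Chow no-tumor and 32.8, 19.9, 24.1 and 22 CPM in Chow contralateral fat. Elf5 on HFD was 16.9, 12.7, 15 and 9.91 CPM in no-tumor and 8.74, 11, 7.33 and 8.37 CPM in contralateral fat. The Chow groups did not overlap and the HFD groups did, with an interaction of -1.43 ± 0.25 (log2, SE; adjusted p = 0.00178). The prolactin receptor gene Prlr fell on HFD (mean 442 ± 61 to 213 ± 44.4 CPM) and not detectably on Chow (716 ± 90.4 to 617 ± 54.4 CPM), with -0.84 ± 0.20, adjusted p = 0.00937. The basal keratin gene Krt14 had -0.95 ± 0.26, adjusted p = 0.021 and the casein gene Csn3 -0.97 ± 0.27, adjusted p = 0.0233. The mammary epithelial count was 8 without Chow no-tumor replicate 1, and 1 with all 24 libraries in 1 fit, where Prlr, Krt14 and Csn3 did not pass. Papln, which encodes the matrix protein papilin, was 71.6, 52.8, 63.9 and 53.7 CPM in HFD no-tumor and 37.2, 26.3, 31.4 and 32.5 CPM in HFD contralateral fat. It was 71.7, 60.4, 66 and 69.7 CPM in Chow no-tumor and 73.4, 82, 77.9 and 75.3 CPM in Chow contralateral fat. Neither pair overlapped, although the Chow effect did not pass, and the interaction was -1.13 ± 0.14 (log2, SE; adjusted p = 0.000306).

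Clock genes were lower in part. Per3, a repressor of the circadian loop, was 89.3, 105, 87.8 and 79.5 CPM in Chow no-tumor and 102, 112, 124 and 111 CPM in Chow contralateral fat. Per3 on HFD was 124, 126, 137 and 131 CPM in no-tumor and 100.3, 85.6, 93.3 and 72 CPM in contralateral fat, without overlap, whereas the Chow groups touched. The interaction was -0.88 ± 0.13 (log2, SE; adjusted p = 0.000597). Per2 had -0.84 ± 0.17, adjusted p = 0.00391 and Cry1, from the opposite phase group, -0.81 ± 0.24, adjusted p = 0.023. In the group that peaks with Dbp 3 of 11 genes were lower, and Dbp itself did not pass (-0.16 ± 0.29, adjusted p = 0.729). That count was 5 without Chow no-tumor replicate 2. In the group that peaks with Arntl 1 of 6 was lower, and Arntl did not pass (0.39 ± 0.33, adjusted p = 0.418). Of all tested genes 9.94% were lower. The labels do not give the hour of collection.

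**Figure D5:**
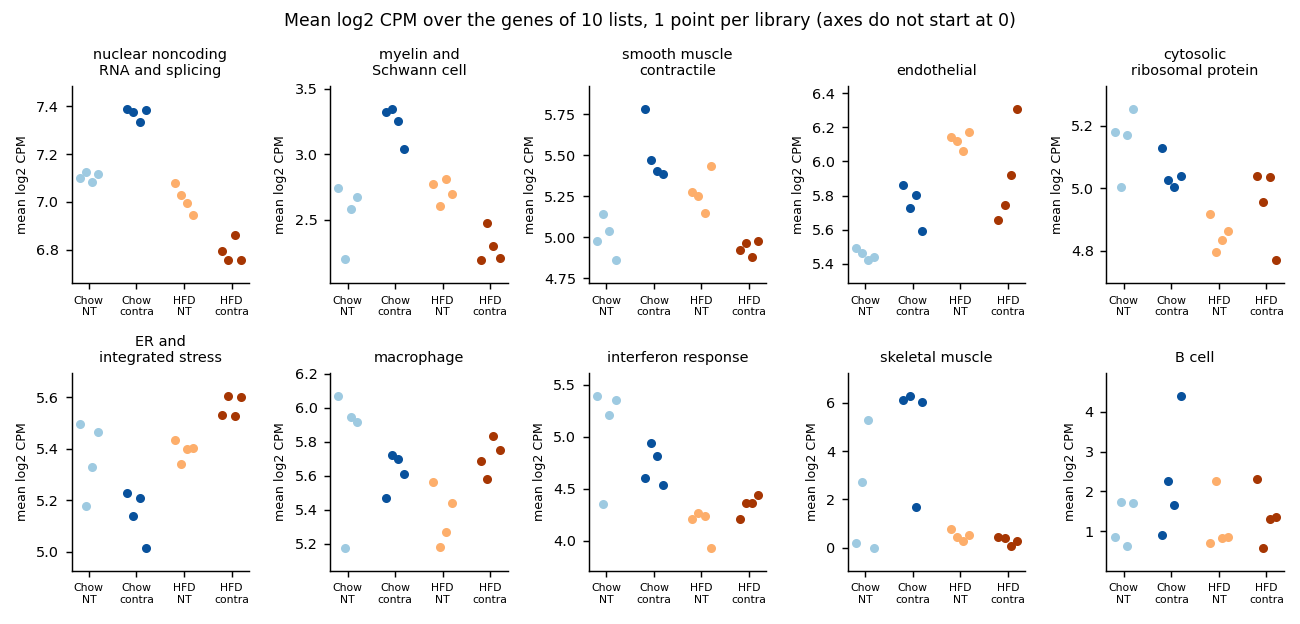
Mean log2 CPM over the genes of 10 lists, 1 point per library, for no-tumor (NT) and contralateral (contra) fat on each diet; the axes do not start at 0. Nuclear RNA and myelin lists are highest in the 4 Chow contralateral libraries, and the skeletal muscle list lies at 6.01 to 6.29 in 3 of them and at 1.69 in the other.

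The higher interactions were mostly smaller than the lower ones. Rps14, a protein of the small ribosomal subunit, was 98.4, 88.6, 94.2 and 92.5 CPM in Chow no-tumor and 87.8, 74.9, 73.1 and 77 CPM in Chow contralateral fat. It was 70.5, 65.7, 69.1 and 71.8 CPM in HFD no-tumor and 87.4, 82.1, 88.7 and 78.6 CPM in HFD contralateral fat. Neither pair overlapped: Rps14 fell on Chow (-0.26 ± 0.06) and rose on HFD (0.28 ± 0.06), with an interaction of 0.54 ± 0.09 (log2, SE; adjusted p = 0.00095). Of 26 cytosolic ribosomal protein genes 15 were higher and 2 lower, with a median of 0.37. The lower ones were Rpl5 (-0.55 ± 0.14, adjusted p = 0.0132) and Rps27 (-1.47 ± 0.47, adjusted p = 0.0331). The higher count was 10 with the skeletal muscle mean as a covariate, and from 9, without HFD contralateral replicates 1 or 3, to 18 without any 1 library.

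Of 29 oxidative phosphorylation genes 13 were higher and 0 lower, also with a median of 0.37. Cox4i1, a subunit of cytochrome c oxidase, was 173, 226, 185 and 174 CPM in Chow no-tumor and 155, 152, 147 and 136 CPM in Chow contralateral fat. Cox4i1 on HFD was 152, 148, 153 and 159 CPM in no-tumor and 176, 176, 173 and 176 CPM in contralateral fat. Neither pair overlapped, and the interaction was 0.56 ± 0.10 (log2, SE; adjusted p = 0.00202). Sdhd of succinate dehydrogenase had 0.52 ± 0.11, adjusted p = 0.00469 and Cox6c 0.54 ± 0.12, adjusted p = 0.00497. In this list 13 genes fell on Chow and 0 rose on HFD, so Chow supplied the calls of single diets. The higher count was 10 with the skeletal muscle mean as a covariate, 6 without HFD no-tumor replicate 1, 7 without Chow contralateral replicates 3 or 4 or HFD contralateral replicate 1, and 8 without HFD no-tumor replicate 2 or HFD contralateral replicate 3. Of 7 mitochondrial genome genes tested 3 were higher, among them mt-Co1 (0.48 ± 0.13, adjusted p = 0.0184), in libraries that differed in mitochondrial ribosomal RNA as given above. That count was 5 without Chow contralateral replicate 2 and 0 with all 24 libraries in 1 fit.

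Adipocyte genes were higher in part. Adipoq encodes adiponectin and was 1356, 1647, 1496 and 1614 CPM in Chow no-tumor and 1255, 1329.7, 1486 and 1219.6 CPM in Chow contralateral fat. It was 1712, 2010.3, 2072 and 1938 CPM in HFD no-tumor and 2522, 2519.8, 2543 and 2757 CPM in HFD contralateral fat. The Chow groups overlapped and the HFD groups did not, and the interaction was 0.63 ± 0.12 (log2, SE; adjusted p = 0.00248). Of 20 mature adipocyte genes 7 were higher and 0 lower, against 9.94% of all tested genes each way, with a median of 0.32. They included the lipase genes Pnpla2 (0.61 ± 0.12, adjusted p = 0.00314) and Lipe (0.41 ± 0.11, adjusted p = 0.0146), the fatty acid carrier gene Fabp4 (0.48 ± 0.11, adjusted p = 0.00673) and the adipsin gene Cfd (0.84 ± 0.23, adjusted p = 0.0204). Leptin did not pass, with Lep at 0.42 ± 0.33, adjusted p = 0.392.

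Some pathways of fuel use were also called on the higher side. Of 19 fatty acid oxidation genes 8 were higher and 0 lower (median 0.30), led by the electron transfer flavoprotein genes Etfb (0.52 ± 0.10, adjusted p = 0.00231) and Etfa (0.61 ± 0.13, adjusted p = 0.00522). Of 23 cholesterol synthesis genes 5 were higher and 0 lower (median 0.34), among them the regulator gene Srebf2 (0.48 ± 0.11, adjusted p = 0.00813). Of 15 genes of branched-chain amino acid breakdown 4 were higher and 0 lower (median 0.25). Each of these counts is to be set beside the 9.94% of all tested genes called each way. Fatty acid synthesis genes had 2 higher of 21, near the 9.94% of all tested genes. They were G6pdx (0.71 ± 0.16, adjusted p = 0.007) and Pgd (0.55 ± 0.18, adjusted p = 0.0435). Pgd kept its call in 10 of 28 alternatives. The fatty acid synthesis median of 0.24 turned to -0.37 without Chow no-tumor replicate 2, so it gives no direction for that list. Of 10 thermogenic fat genes 0 passed. With the skeletal muscle mean as a covariate 4 mature adipocyte, 4 fatty acid oxidation, 2 cholesterol synthesis and 1 thermogenic gene were higher. With all 24 libraries in 1 fit 2 mature adipocyte, 2 fatty acid oxidation, 1 cholesterol synthesis and 0 branched-chain genes were higher. Fatty acid oxidation had 4 without Chow contralateral replicate 4 or HFD no-tumor replicate 1 and 5 without Chow contralateral replicate 2. Cholesterol synthesis had 3 without Chow no-tumor replicate 1, Chow contralateral replicate 4 or HFD no-tumor replicates 1 or 3, and branched-chain breakdown had 2 without HFD no-tumor replicate 1.

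The endoplasmic reticulum supplied the list with the largest share of higher calls, 11 of 18 genes, with 0 lower and a median of 0.42. Hspa5 encodes BiP, the chief chaperone of this compartment. It was 278, 217, 257 and 316 CPM in Chow no-tumor and 237, 227, 255 and 222 CPM in Chow contralateral fat. Hspa5 on HFD was 270.1, 239, 248 and 254 CPM in no-tumor and 267, 319.9, 292 and 296 CPM in contralateral fat. Both pairs overlapped, neither simple effect passed, and the interaction was 0.40 ± 0.13 (log2, SE; adjusted p = 0.0356). Hsp90b1, the chaperone GRP94, was 355, 301, 338 and 381 CPM in Chow no-tumor and 307, 296, 296 and 265 CPM in Chow contralateral fat. It was 291, 261, 269 and 256 CPM in HFD no-tumor and 313, 329.7, 316 and 297 CPM in HFD contralateral fat. The HFD groups did not overlap, and the interaction was 0.46 ± 0.10 (log2, SE; adjusted p = 0.00573).

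Other higher genes of the list were the transcription factor genes Xbp1 (0.55 ± 0.12, adjusted p = 0.0062), Atf4 (0.34 ± 0.10, adjusted p = 0.0273) and Atf3 (1.35 ± 0.45, adjusted p = 0.0488), the kinase-like gene Trib3 (0.92 ± 0.22, adjusted p = 0.00907), Calr for calreticulin (0.47 ± 0.12, adjusted p = 0.0159) and the disulfide isomerase gene Pdia6 (0.43 ± 0.11, adjusted p = 0.0104). Atf3 kept its call in 7 of 28 alternatives. The stress factor gene Ddit3 did not pass (-0.37 ± 0.16, adjusted p = 0.109). With the skeletal muscle mean as a covariate 4 of the 18 were higher, and from 7, without Chow no-tumor replicate 1, Chow contralateral replicate 4 or HFD no-tumor replicate 2, to 11 without any 1 library.

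Some genes of the list share a promoter motif. The ER stress response element was searched as CCAAT, then any 9 bases, then CCACG, on both strands of the 250 bases before each RefSeq start (GRCm38.p6). It was present in 4 of the 18 genes of the list, all 4 among the 11 with a higher interaction, and in 0.138% of the 11629 tested genes that had a promoter sequence. In all promoter windows of that length the share was 0.113%. Because the list is of ER stress genes, a larger share of this element there is no result about the interaction. With 11 of the 18 genes called, whether the 4 matches went with the calls was not tested. Hspa5, Calr and Pdia6 were named after their values and matches were seen. The 4 promoters are shown 5' to 3' on the strand of their gene, with the fixed bases of each match in capitals; a match on the opposite strand reads CGTGG first and ATTGG last. They end at the base before the start.
Hspa5 (chr2:34771840-34772089, plus strand): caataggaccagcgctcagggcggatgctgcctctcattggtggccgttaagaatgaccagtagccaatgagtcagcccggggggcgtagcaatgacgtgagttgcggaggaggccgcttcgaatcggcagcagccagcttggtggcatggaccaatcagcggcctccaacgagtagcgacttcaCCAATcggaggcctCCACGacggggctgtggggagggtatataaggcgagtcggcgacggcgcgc
Hsp90b1 (chr10:86705445-86705694, minus strand): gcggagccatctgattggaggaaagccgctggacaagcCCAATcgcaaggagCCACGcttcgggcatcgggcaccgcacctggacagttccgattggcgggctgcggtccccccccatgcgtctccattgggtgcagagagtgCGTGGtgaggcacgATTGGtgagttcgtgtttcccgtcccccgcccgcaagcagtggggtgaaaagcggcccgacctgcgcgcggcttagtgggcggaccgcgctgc
Calr (chr8:84846932-84847181, minus strand): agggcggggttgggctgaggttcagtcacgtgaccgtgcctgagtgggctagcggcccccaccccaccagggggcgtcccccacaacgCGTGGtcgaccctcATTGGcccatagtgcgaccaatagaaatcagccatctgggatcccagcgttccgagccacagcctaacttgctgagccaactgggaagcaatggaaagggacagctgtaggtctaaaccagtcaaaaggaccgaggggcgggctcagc
Pdia6 (chr12:17266339-17266588, plus strand): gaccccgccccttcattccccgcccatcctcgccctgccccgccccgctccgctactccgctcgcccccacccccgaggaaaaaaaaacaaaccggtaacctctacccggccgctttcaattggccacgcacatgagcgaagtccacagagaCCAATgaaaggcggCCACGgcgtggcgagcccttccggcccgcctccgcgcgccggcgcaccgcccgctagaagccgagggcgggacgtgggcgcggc
Hsp90b1 held 2 matches, 1 on each strand, and the other genes 1 each. A match describes these letters and does not show that a factor bound there.

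Genes of myeloid cells were among those with large higher interactions. Mmp9 (chromosome 2, 164940780 to 164955850), the gelatinase carried by neutrophils and macrophages, had the lowest adjusted p of the higher genes of at least 2-fold. It was 28.3, 23.6, 27.5 and 31.5 CPM in Chow no-tumor and 17.2, 25.3, 23.7 and 20.8 CPM in Chow contralateral fat. Mmp9 on HFD was 6.93, 6.71, 7.06 and 5.92 CPM in no-tumor and 15.9, 14.2, 13.6 and 11.2 CPM in contralateral fat. The Chow groups overlapped, and all 4 HFD contralateral libraries lay above all 4 HFD no-tumor ones. Mmp9 rose on HFD by 1.05 ± 0.13 (log2, SE; adjusted p = 0.000751), with an interaction of 1.40 ± 0.18 (log2, SE; adjusted p = 0.000262), and remained below both Chow groups in every HFD library.

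S100a8, a calcium-binding alarmin of neutrophils, was low throughout: 0.804, 0.28, 0.52 and 0.449 CPM in Chow no-tumor and 0.409, 0.291, 0.136 and 0.714 CPM in Chow contralateral fat. S100a8 on HFD was 0.641, 1.71, 1.03 and 1.41 CPM in no-tumor and 3.27, 3.69, 5.69 and 10.8 CPM in contralateral fat. The HFD groups did not overlap, and the interaction was 2.67 ± 0.75 (log2, SE; adjusted p = 0.0201). Csf3r, the receptor for granulocyte colony-stimulating factor, had 0.89 ± 0.28, adjusted p = 0.0331. Of 7 neutrophil genes tested, 3 were higher and 0 lower, and 1 of the 7 had a negative interaction. Over all tested genes 9.94% were called each way. Under DESeq2, a 1 CPM filter, a replicate block or a B cell covariate 1 neutrophil gene was called lower. The same count was lower with the exon length and GC trend taken off. Another 6 of the 13 in the list, among them the granule genes Mpo, Ngp and Camp and the surface marker gene Ly6g, were too low to test. Without Chow no-tumor replicate 1 the higher count was 1, and S100a8 did not pass.

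Slfn4, a schlafen gene of activated myeloid cells, was 18.4, 2.24, 14.2 and 11.9 CPM in Chow no-tumor and 5.52, 8.05, 6.68 and 4.87 CPM in Chow contralateral fat. It was 1.22, 0.443, 0.852 and 0.704 CPM in HFD no-tumor and 6.36, 3.44, 3.21 and 3.41 CPM in HFD contralateral fat. Replicate 2 stood low in Chow no-tumor fat, and the HFD groups did not overlap. The interaction was 3.25 ± 0.76 (log2, SE; adjusted p = 0.00935). Il1b, which encodes interleukin-1 beta, was 0.291, 0.76, 0.426 and 0.411 CPM in HFD no-tumor and 3.57, 1.81, 1.09 and 1.18 CPM in HFD contralateral fat. It was 0.557, 0.98, 0.325 and 0.706 CPM in Chow no-tumor and 0.477, 0.485, 0.341 and 0.584 CPM in Chow contralateral fat. Only the HFD groups were apart, with an interaction of 2.44 ± 0.65 (log2, SE; adjusted p = 0.0132).

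Of 17 cytokine and chemokine genes tested 4 were higher and 0 lower, against 9.94% of all tested genes each way, with a median of 0.51. Besides Il1b they were the chemokine genes Ccl8 (1.83 ± 0.45, adjusted p = 0.0131), Cxcl1 (1.94 ± 0.60, adjusted p = 0.0274) and Ccl2 (1.59 ± 0.48, adjusted p = 0.0303). Ccl2 kept its call in 14 of 28 alternatives. Ccl8 was 26.6, 11, 34 and 25.7 CPM in Chow no-tumor and 9.74, 15.1, 13.8 and 11.9 CPM in Chow contralateral fat. Ccl8 on HFD was 6.58, 5, 4.99 and 6.63 CPM in no-tumor and 7.55, 9.37, 9.15 and 16.8 CPM in contralateral fat. It passed on neither diet alone. The count was 2 without Chow contralateral replicates 2 or 4, HFD no-tumor replicate 2 or HFD contralateral replicate 2, and 8 without Chow no-tumor replicate 2, and with all 24 libraries in 1 fit it was 0.

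Hdc, the enzyme that makes histamine, was 9.71, 7.28, 12.2 and 18.4 CPM in Chow no-tumor and 13, 12, 9.2 and 9.6 CPM in Chow contralateral fat. It was 2.45, 2.66, 3.29 and 2.46 CPM in HFD no-tumor and 6.72, 7.19, 7.51 and 6.76 CPM in HFD contralateral fat. The Chow groups overlapped and the HFD groups were well apart, with an interaction of 1.5 ± 0.31 (log2, SE; adjusted p = 0.00494). Of 9 mast cell genes 5 were higher, 1 was lower and 3 did not pass. The higher genes were Hdc, the protease genes Cma1 (0.83 ± 0.19, adjusted p = 0.00766), Tpsb2 (0.70 ± 0.20, adjusted p = 0.0233) and Mcpt4 (0.57 ± 0.19, adjusted p = 0.0402), and the IgE receptor gene Fcer1a (1.39 ± 0.48, adjusted p = 0.0477). Mcpt4 kept its call in 10 of 28 alternatives. Kit, the receptor for stem cell factor, which other cells of the gland also make, was lower (-0.59 ± 0.19, adjusted p = 0.0408). The higher count was 2 without Chow contralateral replicates 1 or 4 or HFD contralateral replicate 3, 3 without Chow no-tumor replicate 4, HFD no-tumor replicates 2 or 3 or HFD contralateral replicates 1 or 2, and 2 with the skeletal muscle mean as a covariate.

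Of 18 macrophage genes 7 were higher and 0 lower, against 9.94% of all tested genes each way, with a median of 0.63. Adgre1, which encodes the macrophage marker F4/80, was 63.6, 43.7, 60.2 and 55.3 CPM in Chow no-tumor and 43.5, 49.5, 48 and 39.6 CPM in Chow contralateral fat. Adgre1 on HFD was 50.8, 50.8, 51 and 57.5 CPM in no-tumor and 62.7, 63.4, 69.9 and 72.8 CPM in contralateral fat. The Chow groups overlapped, the HFD groups did not, and the interaction was 0.66 ± 0.14 (log2, SE; adjusted p = 0.00445). The complement genes C1qa, C1qb and C1qc had 0.87 ± 0.27, 0.93 ± 0.28 and 0.87 ± 0.25, and the mannose receptor gene Mrc1 0.65 ± 0.20, adjusted p = 0.0356. Of 16 lipid-associated macrophage genes 4 were higher, led by Cd63, a lysosomal membrane protein (0.65 ± 0.12, adjusted p = 0.00202). The macrophage count moved with single libraries of every group. It was 12 without Chow no-tumor replicate 2, 2 or 3 without replicates 3 or 4 of that group or HFD contralateral replicate 4, and 1 without Chow no-tumor replicate 1, Chow contralateral replicates 1 or 4, HFD no-tumor replicates 2 or 3 or HFD contralateral replicate 3. With the skeletal muscle or the B cell mean as a covariate it was 1, and with all 24 libraries in 1 fit 3. The lipid-associated count was 2 without Chow contralateral replicate 4 or HFD no-tumor replicate 3.

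Interferon-stimulated genes all had a positive interaction, 27 of 27 with a median of 0.63, and 5 passed. Of all tested genes 9.94% were higher. The 27 signs come from the same 16 libraries and are not separate results. On Chow 4 of these genes fell, and on HFD 0 were called. The list mean was 4.36 to 5.40 log2 CPM in Chow no-tumor and 4.54 to 4.94 in Chow contralateral fat. On HFD it was 3.93 to 4.27 in no-tumor and 4.21 to 4.44 in contralateral fat. Isg15, a ubiquitin-like modifier, was 11.4, 2.45, 10.5 and 10.9 CPM in Chow no-tumor and 3.27, 4.75, 3.89 and 3.5 CPM in Chow contralateral fat. It was 1.98, 1.58, 1.46 and 2.17 CPM in HFD no-tumor and 2.32, 2.96, 1.88 and 3.22 CPM in HFD contralateral fat. Chow no-tumor replicate 2 was far below the other 3, which all exceeded the Chow contralateral libraries. The interaction was 1.74 ± 0.52 (log2, SE; adjusted p = 0.0289). The others were Bst2 (0.90 ± 0.20, adjusted p = 0.00671), Oas1a (1.21 ± 0.36, adjusted p = 0.0293), Rtp4 (0.90 ± 0.29, adjusted p = 0.0411) and Cmpk2 (0.74 ± 0.25, adjusted p = 0.0462). The count was 19 without Chow no-tumor replicate 2 and from 1 to 5 without any other library, with 1 without Chow no-tumor replicates 1 or 4, Chow contralateral replicates 1 or 4 or HFD contralateral replicate 4. Rtp4 kept its call in 10 of 28 alternatives. Of 15 antigen presentation genes 4 were higher and 0 lower, with H2-D1 of the class I complex at 0.59 ± 0.11, adjusted p = 0.00207. That count was 7 without HFD no-tumor replicate 2, and 8 with Chow no-tumor replicate 2 and Chow contralateral replicate 4 left out.

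Chrdl1 (chromosome X, 143285674 to 143394262) encodes a secreted inhibitor of bone morphogenetic proteins. It was 105, 82, 99.3 and 142 CPM in Chow no-tumor and 98.6, 119, 127 and 94.3 CPM in Chow contralateral fat. Chrdl1 on HFD was 174, 154, 151 and 128 CPM in no-tumor and 262, 283, 418 and 311 CPM in contralateral fat. The Chow groups overlapped, and every HFD contralateral library lay above every other library of the 16. The interaction was 1.04 ± 0.25 (log2, SE; adjusted p = 0.0109), and with the skeletal muscle mean as a covariate the adjusted p was 0.0589.

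Igf1, insulin-like growth factor, was 214, 336, 285 and 370.1 CPM in Chow no-tumor and 197, 236, 211 and 217 CPM in Chow contralateral fat. It was 198, 256, 302 and 268 CPM in HFD no-tumor and 316, 357, 269.8 and 333 CPM in HFD contralateral fat. Both pairs overlapped, and the interaction was 0.80 ± 0.21 (log2, SE; adjusted p = 0.0177). Of 29 extracellular matrix genes 2 were higher, Sparc (0.55 ± 0.17, adjusted p = 0.0327) and Mmp14 (0.36 ± 0.11, adjusted p = 0.0289), and 1 was lower, Tnc for tenascin C (-0.83 ± 0.24, adjusted p = 0.0275), shares below those of all tested genes (9.94% each way). The higher matrix count was 8 without Chow no-tumor replicate 2, 5 without HFD contralateral replicate 4, and 0 without Chow no-tumor replicate 1, Chow contralateral replicates 1 or 4 or HFD no-tumor replicate 2. Of 24 cell cycle genes 2 were higher, again below the 9.94% of all tested genes: E2f1 (0.82 ± 0.18, adjusted p = 0.00561) and Mcm3 (0.62 ± 0.16, adjusted p = 0.0129), and the proliferation marker gene Mki67 did not pass (-0.14 ± 0.37, adjusted p = 0.815).

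Imprinted genes, a list chosen after the data were seen, had 2 higher and 1 lower of 14. Without any 1 library 1 to 2 were higher and 1 to 2 lower. Of all tested genes 9.94% were called each way. Peg10 (chromosome 6, 4747306 to 4760517) is a retrotransposon-derived gene expressed from the paternal copy. It was 15.3, 12, 12.2 and 12.3 CPM in Chow no-tumor and 12.5, 11.9, 12.1 and 9.34 CPM in Chow contralateral fat. Peg10 on HFD was 41.6, 25.8, 23.8 and 26.9 CPM in no-tumor and 44.3, 112, 89.7 and 200.3 CPM in contralateral fat. The HFD contralateral libraries spread widely and all lay above the no-tumor ones, with an interaction of 2.09 ± 0.54 (log2, SE; adjusted p = 0.018). With the skeletal muscle mean as a covariate its adjusted p was 0.0673, and with Chow no-tumor replicate 2 and Chow contralateral replicate 4 left out 0.0562. Plagl1, a zinc finger gene, had 0.51 ± 0.17, adjusted p = 0.0427, and kept its call in 10 of 28 alternatives. Airn (chromosome 17, 12741311 to 12860122), the noncoding RNA that overlaps Igf2r on the other strand, was lower (-1.24 ± 0.16, adjusted p = 0.000262).

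Creatine metabolism, named in the title of the series, had 0 higher and 1 lower of 7 genes. Of all tested genes 9.94% were called each way. The lower gene was Ckmt1, a mitochondrial creatine kinase, at 2.04, 1.4, 1.69 and 1.41 CPM in Chow no-tumor and 3.54, 2.42, 2.66 and 2.27 CPM in Chow contralateral fat. Ckmt1 on HFD was 3.03, 2.91, 2.74 and 1.23 CPM in no-tumor and 1.13, 1.69, 1.21 and 0.434 CPM in contralateral fat. The Chow groups did not overlap, the HFD groups did, and the interaction was -1.87 ± 0.45 (log2, SE; adjusted p = 0.00898). Gatm, the first enzyme of creatine synthesis, did not pass (-0.41 ± 0.23, adjusted p = 0.205), nor did the second enzyme gene Gamt (0.22 ± 0.26, adjusted p = 0.584), the transporter gene Slc6a8 (-0.28 ± 0.14, adjusted p = 0.153) or the kinase gene Ckb (0.29 ± 0.15, adjusted p = 0.171). Ckm and Ckmt2 are the muscle forms of the kinase: Ckm, at or near 0 on HFD, gave no usable estimate, and Ckmt2 did not pass (-1.25 ± 1.39, adjusted p = 0.56). The list median of -0.41 became 0.25 with the skeletal muscle mean as a covariate.

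Some lists with wide spread within Chow had 0 calls. Of 16 skeletal muscle genes 0 were called, with a median interaction of -2.57. Without Chow no-tumor replicate 3, 6 of them were lower and the median was -5.20, and without Chow contralateral replicate 3, 2 were lower. Of 14 B cell genes 0 were called, with a median of -1.57. The B cell median was 0.00 without Chow contralateral replicate 4. Of 16 T and NK cell genes 0 passed, with a median of -0.86, and 0.05 with Chow no-tumor replicate 2 and Chow contralateral replicate 4 left out. Red blood cell genes had 2 higher of 7, beside 9.94% of all tested genes. The 2 were the hemoglobin copy Hbb-bt (1.10 ± 0.35, adjusted p = 0.0415), whose counts are not cleanly separate from other copies, and Slc4a1 (2.43 ± 0.83, adjusted p = 0.0486). Without any 1 library that count ran from 0 to 4, and it was 0 without Chow no-tumor replicates 1, 2 or 3, any Chow contralateral replicate, HFD no-tumor replicates 1 or 2 or HFD contralateral replicates 3 or 4.

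The genes with a simple effect on only 1 diet were numerous. Of 914 genes that rose on Chow and were not called on HFD, 647 had a lower interaction. Of 964 that fell on Chow and were not called on HFD, 737 had a higher one. Of 274 that rose on HFD alone 208 had a higher interaction, and of 390 that fell on HFD alone 306 had a lower one. For the other genes of these 4 groups a difference between the diets was not shown. The 64 genes that fell on Chow and rose on HFD included Tspo, an outer mitochondrial membrane protein (0.80 ± 0.09, adjusted p = 0.000138), Sh3bgrl (0.71 ± 0.09, adjusted p = 0.000312) and Chp1 (0.59 ± 0.08, adjusted p = 0.000376).

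A single gene fell on both diets with an interaction. Aqp5, a water channel of secretory epithelium, was 75.3, 73, 63.2 and 65 CPM in Chow no-tumor and 52.6, 63, 48.8 and 50.4 CPM in Chow contralateral fat. Aqp5 on HFD was 16.8, 19, 22.9 and 21.9 CPM in no-tumor and 10.6, 11.1, 11.3 and 8.62 CPM in contralateral fat. The HFD groups did not overlap and were both below all Chow libraries, and the Chow groups were apart by a narrow margin. Aqp5 fell on Chow (-0.37 ± 0.10) and more on HFD (-0.95 ± 0.11), with an interaction of -0.59 ± 0.15 (log2, SE; adjusted p = 0.0131).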

How the data were processed

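RNA was sequenced from 24 samples of mammary fat, and 16 enter here, grouped by their labels. The authors deposited a single matrix of raw counts per gene. The submitters' processing notes name TopHat, DESeq and mm10 (versions and counting strand not given in the sources used here). Of its 39017 genes 37607 carry a symbol. Genes were kept by filterByExpr (minimum count 10, minimum total 15), which left 16676. They were fitted with edgeR 4.0.16 in R 4.3.3 (matrix read with data.table, version 1.17.8) with 1 mean per group, TMM factors and the robust quasi-likelihood F test. The interaction and both simple effects are contrasts of that fit, with Benjamini-Hochberg adjustment over all genes and a threshold of 0.05. The standard error (SE) comes from the model's information matrix and the moderated quasi-dispersion. Printed CPM are scaled with TMM over the 16 libraries. Every library held at least 11.7 M counts. Counting error weighs more on genes of few CPM, and its part in the spread between libraries was not measured. The fit was also run on simulated counts with planted interactions and otherwise a common mean per gene. Those counts held no muscle, B cell or exon length differences between libraries, so they cannot show how the fit handles such differences.

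Named genes are up to 15 higher and 15 lower ones with the lowest adjusted p, a log2 interaction of at least 1 and 5 CPM in 1 group (placeholder symbols left out), all creatine genes, up to 4 called members of each list or 2 uncalled ones, up to 4 genes per combination of simple effects, and Malat1, Neat1, Lep, Mki67, Ms4a1, Acta1 and Gm42418. Some genes that the rule picks are not reported here. List members outside this rule were named after their values were seen. The comparison and the 39 gene lists were chosen with earlier results of these data known. A smooth muscle and an imprinted list, the 2 left-out libraries and the removal of the exon length and GC trend were chosen after the data were seen. Alternatives were DESeq2 1.42.0, limma 3.58.1 (voom), other size factors and filters, all 24 libraries, covariates, a replicate block and leaving out each library. Lists are described by counts and medians without a test. Promoters were those of RefSeq, and gene classes those of GENCODE.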

Additional observations from a re-analysis of the deposited data

Results flagged for a closer look

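Contralateral minus no-tumor fat differed between the diets, by the test of that difference itself, for 3314 genes. Among them, 138 genes rose on Chow and fell on HFD, and 64 fell on Chow and rose on HFD.

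Within a group of 4, some single libraries stood apart from the other 3. Such a gap arises by chance in about 1 in 20 groups, and it was found in 19 of 140 groups of values examined. Chow libraries gave 8 of them. Kcna1 was at 12.9 CPM in Chow no-tumor replicate 4 (others 9.09 to 9.37), Malat1 at 7704 CPM in replicate 1 (others 8600.2 to 8691), Peg10 at 15.3 CPM in replicate 1 (others 12 to 12.3) and Isg15 at 2.45 CPM in replicate 2 (others 10.5 to 11.4). In Chow contralateral fat the T and NK cell mean of replicate 4 was 2.16 log2 CPM (others 0.16 to 0.34) and the skeletal muscle mean of replicate 3 was 1.69 (others 6.01 to 6.29). Replicate 2 of that group had 11.7 M counts (others 13.6 to 13.8 M) and 11.4% of them at Gm42418, a locus that overlaps ribosomal RNA (others 0.0212% to 0.900%).

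In HFD no-tumor fat Kcna1 was at 8.52 CPM in replicate 3 (others 7.92 to 7.98), Adgre1 at 57.5 CPM in replicate 4 (others 50.8 to 51.0) and Ckmt1 at 1.23 CPM in replicate 4 (others 2.74 to 3.03). Replicate 2 had a T and NK cell mean of 1.19 log2 CPM (others 0.03 to 0.22) and a B cell mean of 2.27 (others 0.70 to 0.86). Mitochondrial ribosomal RNA was 20.5% in replicate 1 (others 21.9% to 22%) and Gm42418 0.0414% in replicate 4 (others 0.0202% to 0.0220%). In HFD contralateral fat Cox4i1 was at 173 CPM in replicate 3 (others 175.7 to 176), Adipoq at 2757 CPM in replicate 4 (others 2519.8 to 2543), Slfn4 at 6.36 CPM in replicate 1 (others 3.21 to 3.44) and Gm42418 at 0.0363% in replicate 2 (others 0.0226% to 0.0232%).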

How the results depend on the processing

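Under DESeq2, voom, RLE size factors, a 1 CPM filter or none, a B cell covariate, and without mitochondrial genes and Gm42418, the interaction gave 2700 to 4017 genes. With all 24 libraries in 1 fit it gave 1556 genes (625 higher, 931 lower), and with the skeletal muscle mean as a covariate 1764 (774 higher, 990 lower). Without any 1 library it gave 2435 to 3753 genes, with 1006 to 1954 higher and 1364 to 1799 lower. The higher count was lowest without Chow contralateral replicate 4 (1006) and without HFD no-tumor replicates 1, 2 or 3 (1071, 1061 and 1094). With exon length and GC taken off it was 3005, and without Chow no-tumor replicate 2 and Chow contralateral replicate 4 it was 3096, both chosen after the data were seen. On Chow the count of 2099 was 1268 when fitted on its own 8 libraries. Of 4895 values of named genes under alternatives 4385 stayed on their side of the threshold, 494 lost and 16 gained the call, and 0 changed sign as calls. The cause was not tested. With a replicate block 3022 genes were called. Correlations of same-numbered libraries across the 4 groups ran from -0.386 to 0.159, with 2 of 24 above 0.1. These groups differ in diet or tumor bearing, so the correlations cannot show libraries from the same mouse. Whether contralateral and peritumoral libraries of the same number share a mouse was not examined. Depth limits genes near 1 CPM, such as Il1b, S100a8 and Ckmt1.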

Other observations

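The 8 peritumoral libraries took no part in the comparison, and their levels, scaled over all 24 libraries, are given here as values. In Chow peritumoral fat Kcna1 was 20.8 ± 4.60 CPM (SD, n = 4), Neat1 763 ± 181, Malat1 10817 ± 757 and Rbm4 21.5 ± 3.57 CPM. In HFD peritumoral fat Kcna1 was 3.13 ± 1.21 CPM, Neat1 363 ± 49.7, Malat1 4989 ± 398 and Rbm4 8.42 ± 1.01 CPM. These ranges met those of contralateral fat on the same diet for each of the 4 genes.

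Some genes with a higher interaction had the following levels near the tumor. S100a8 was 20.5 ± 8.62 CPM and Ccl8 114 ± 32.3 CPM in HFD peritumoral fat, against 1.34 ± 1.40 and 52.7 ± 34.2 CPM in Chow peritumoral fat. Hdc was 16.7 ± 3.56 CPM on HFD and 12.6 ± 1.64 CPM on Chow. Mmp9 was 13.1 ± 0.379 CPM on HFD and 20.7 ± 5.89 CPM on Chow. Peg10 was 60.3 ± 14.1 CPM and Chrdl1 246 ± 65.8 CPM on HFD, against 11.4 ± 0.944 and 107 ± 22.4 CPM on Chow.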
